A study of Rattus norvegicus with 18 samples.

Results

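The insulin-like growth factor (IGF) axis was followed here through 4 genes, the ligands Igf1 and Igf2, the receptor Igf1r and the binding protein Igfbp3. Every probe set whose platform annotation symbol was 1 of these 4 names was taken, which gave 14 of the 1322 probe sets on the array and 4 of its 720 genes with a single symbol. The rule reads symbols and no signal, though the 4 genes were picked with earlier results of these data known. Igf1 had 5 of these probe sets, Igf2 6, Igf1r 1 and Igfbp3 2. After dim probe sets had been filtered out, 12 of the 14 were tested, 1 of Igf1 and 1 of Igf2 having been too dim.

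IGF-I and IGF-II are small secreted proteins related to insulin. Both act mainly through the IGF-I receptor, a tyrosine kinase that feeds the phosphatidylinositol 3-kinase and Akt branch and the Ras and MAP kinase branch, and promote growth and survival of cells. Outside the cell most of either ligand is held by a family of binding proteins, of which IGFBP-3 is the main carrier in blood, and in the rodent brain Igf2 is mainly made by the meninges and the choroid plexus.

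The samples were total RNA from rat cortical astrocytes in culture. The exposed cells grew on a surface coated with the beta-amyloid peptide 25-35 fragment, a piece of the peptide that forms Alzheimer plaques, for 12 hours, 1 day, 3 days or 5 days, with 3 arrays at each time. The 6 control arrays were from cells grown on laminin and nitrocellulose with no peptide, and the labels give them no time in culture. The labels name the source of controls 1 and 2 as cerebral cortex, and that of controls 3 to 6 and all 12 exposed samples as cortical type-I astrocytes. Nothing in the labels says whether the arrays of a group came from separate cultures, so p-values measure only the spread between these arrays, which may be technical, and the number of arrays limits the precision. Signals are the deposited linear intensities, already scaled to a common mean.

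The arrays fell into 2 clusters that cut across the groups, and this bears on every result below. They were formed by average linkage from the correlations between arrays of log2 signal over all tested probe sets except those of the IGF axis. Cluster 1 held 7 arrays, namely controls 1 and 2, all 12 hours arrays, 1 day array 3 and 3 days array 3, and cluster 2 held the other 11. The median correlation between arrays was 0.955 within a group and cluster, 0.819 within a group but across clusters, and 0.916 between groups within a cluster. Both controls labelled cerebral cortex were thus in cluster 1, together with 5 arrays labelled type-I astrocytes. What separates the clusters is not given in the labels.

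Cell type markers were read in the same way. Of 15 astrocyte markers 8 had a probe set with their name, of 12 neuron markers 8, of 11 oligodendrocyte lineage markers 6, of 20 meningeal, fibroblast and vascular markers 2, of 7 choroid plexus markers 1 and of 10 microglia markers 1. Gfap had no probe set named here. The summed astrocyte signal was 33324.8 to 39896.6 in cluster 1 and 24072.3 to 42339.6 in cluster 2, and no measured astrocyte gene was at the floor on any array. Vim alone read 14574.7 to 18647.7 and 8770.4 to 18831.2. Such sums are set largely by a few bright genes and do not measure the share of a cell type. Of 18 astrocyte probe sets, 5 (3 of Slc1a3, 1 of Mt3 and 1 of S100b) were lower on every array of cluster 1 than on any of cluster 2, and 1, of Gja1, was higher. The summed neuron signal was 3214.8 to 4744.7 in cluster 1 and 4578.7 to 5995.1 in cluster 2, of which Eno2 alone made 2122.9 to 3158.4 and 2904.4 to 3833.6. Of 15 neuron probe sets 3, all of Map2, were lower on every array of cluster 1. Among these, S74265_s_at and X53455cds_s_at read at most 18 and 13.7 in cluster 1, so they passed the filter on dim probe sets only through cluster 2. The other neuron probe sets overlapped, among them Map2 rc_AI228850_s_at (64 to 139.5 and 42.9 to 192.1) and X17682_s_at. The summed oligodendrocyte lineage signal was 1628 to 1977 in cluster 1 and 1104.9 to 1926.5 in cluster 2, and 2 of 9 probe sets, both of Pdgfra, were higher on every array of cluster 1. The other probe sets of that list, of Pdgfra, Mbp, Mag, Mog, Cnp and Sox10, overlapped between the clusters. Cnp, for example, read 229.9 to 533.8 in cluster 1 and 278 to 817.8 in cluster 2. The separation on this list thus came from Pdgfra alone. Of all 1015 tested probe sets outside the IGF axis, 7.68% were higher and 7% lower on every array of cluster 1. The clusters had been formed from these probe sets, tested markers included, so the marker counts are not independent of the clusters. The marker differences move with the same clusters as Igf2 and Igfbp3, and their part in the results was not tested.

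The start regions of Igf2 and Igfbp3 are shown because these are the members whose signals differed most between arrays. The windows are the 250 bases before an annotated start, from RefSeq on build GRCr8, read 5′ to 3′ on the gene's strand. RefSeq gave 2 windows for Igf2, at chr1:207253981-207254230 and chr1:207250476-207250725, both on the minus strand, and 1 for Igfbp3, at chr14:86277945-86278194 on the minus strand. The array probes read the transcript and do not tell which Igf2 start was used. Capitals mark matches to 4 motifs searched on both strands. Of 3 motifs related to the TATA box, TATATA reads the same on both strands, TATAAA is the usual form, and ATAAAA can overlap it. The fourth was GGGCGG, the core of the GC box.
Igf2, window 1: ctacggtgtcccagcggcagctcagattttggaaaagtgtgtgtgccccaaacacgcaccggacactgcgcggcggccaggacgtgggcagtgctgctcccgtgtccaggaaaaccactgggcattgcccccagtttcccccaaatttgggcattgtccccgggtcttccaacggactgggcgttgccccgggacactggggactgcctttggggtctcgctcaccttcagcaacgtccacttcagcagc
Igf2, window 2: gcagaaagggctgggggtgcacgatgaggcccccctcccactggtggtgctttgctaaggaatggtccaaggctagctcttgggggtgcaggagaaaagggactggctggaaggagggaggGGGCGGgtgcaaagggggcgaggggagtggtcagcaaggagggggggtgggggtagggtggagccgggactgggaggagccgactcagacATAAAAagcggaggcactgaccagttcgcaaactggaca
Igfbp3: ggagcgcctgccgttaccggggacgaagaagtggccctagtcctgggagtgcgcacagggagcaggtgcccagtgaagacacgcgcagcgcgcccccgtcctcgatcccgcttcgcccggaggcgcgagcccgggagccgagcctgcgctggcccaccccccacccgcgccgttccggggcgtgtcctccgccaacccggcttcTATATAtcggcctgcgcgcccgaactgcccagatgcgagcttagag

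The Igfbp3 window held TATATA 46 to 41 bases before the start, a motif present in 5.45% of the 33469 windows of this length in the table. The second Igf2 window held ATAAAA 39 to 34 bases before the start and GGGCGG 129 to 124 bases before it, which 18.6% and 30.5% of all windows hold. The first Igf2 window held none of the 4, and TATAAA, found in 12.9% of windows, was in none of the 3. G and C made up 62.4% and 63.6% of the Igf2 windows and 71.6% of the Igfbp3 window, against a median of 51.2% over all windows. The windows of Igf1r and Igf1 were at 79.6% and 46.8%. A match is a description of letters and not a binding site.

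Igf2, the fetal growth factor of the axis, had the widest range of any ligand probe set. Its brightest probe set, X17012mRNA_s_at, read 3729.6 and 8043.0 on controls 1 and 2, and 532.5, 284.5, 220.2 and 211.2 on controls 3 to 6. On the peptide it read 3282.5, 3430.2 and 3487.6 at 12 hours, 622.6, 645.3 and 7281.1 at 1 day, 514.7, 470.7 and 8743.8 at 3 days, and 267.9, 229.3 and 246.2 at 5 days. The 7 arrays of cluster 1 all lay at or above 3282.5 and the 11 of cluster 2 at or below 645.3, so that controls, 1 day and 3 days each held arrays from both ranges.

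A second Igf2 probe set, E00988mRNA_s_at, split the arrays in the same way at lower signals. It read 128.3 and 289.0 on controls 1 and 2 and 31.4, 29.0, 18.5 and 23.4 on controls 3 to 6. At 12 hours it read 192.3, 168.4 and 169.1, at 1 day 14.6, 31.0 and 384.9, at 3 days 19.0, 31.2 and 589.3, and at 5 days 22.0, 12.3 and 22.9. Cluster 1 and cluster 2 did not overlap on this probe set either.

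Within cluster 1, Igf2 formed a low and a high set of arrays on both probe sets. Control 1 and the 12 hours arrays read 3282.5 to 3729.6 on X17012mRNA_s_at, while control 2, 1 day array 3 and 3 days array 3 read 7281.1 to 8743.8. Fitted within cluster 1, the single 3 days array exceeded the 12 hours arrays by 1.36 in log2 signal (limma adjusted p 0.167), where 0.0974% of all probe sets were called. The spread in that fit comes from the control and 12 hours arrays, and the lone 3 days array is assumed to vary like them.

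The other Igf2 probe sets did not follow the clusters. M17960_g_at ranged over 318.2 to 528.9 and M17960_at over 124.7 to 221.7 on the 18 arrays, and the clusters overlapped on both. X16703_r_at ranged over 26.9 to 105.6, and X16703_i_at, at 0.0 to 56.2, was too dim to be tested. After each array's cluster mean was taken away, X17012mRNA_s_at had Pearson correlations over the 18 arrays of 0.57 with E00988mRNA_s_at, 0.659 with M17960_at, 0.637 with M17960_g_at and 0.39 with X16703_r_at. These describe probe sets read on the same arrays, and arrays of a group are not independent of each other.

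Igf1, the other ligand and the main mediator of growth hormone action, read at most 346.2 on any of its probe sets. The median signals of the arrays were 101.6 to 133.1. Its brightest probe set, M15481_g_at, read 228.9, 105.5, 311.5, 200.7, 198.4 and 138.6 on controls 1 to 6. It read 199.1, 213.1 and 171.4 at 12 hours, 115.2, 72.5 and 136.1 at 1 day, 160.5, 240.7 and 35.1 at 3 days, and 134.2, 82.2 and 106.2 at 5 days. All exposed groups overlapped the controls.

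The Igf1 probe sets disagreed with each other. M15481_at, of the same accession, was highest at 346.2 on control 2 and 286.0 on 3 days array 3, 2 of the arrays on which M15481_g_at was lower than in the rest of its group. The correlation of this pair, with cluster means taken away, was -0.25 over 18 arrays, and the correlations among the 4 tested Igf1 probe sets ran from -0.25 to 0.601. D00698_s_at ranged over 3.1 to 64.6, with 8 of 18 values under the floor of 11.3, and X06107_i_at, at 7.3 to 52.1, was not tested. X06107_r_at was the steadiest, with 97.2, 106.2 and 103.0 at 12 hours against 101.5 to 180.7 on the controls and 114.9 to 153.8 on the arrays of the later times.

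Igf1r, the receptor for both ligands, varied little. M27293_s_at read 293.1, 359.9, 365.6, 273.0, 412.1 and 367.5 on controls 1 to 6. It read 342.0, 291.7 and 322.5 at 12 hours, 327.5, 256.6 and 337.7 at 1 day, 365.4, 386.3 and 366.4 at 3 days, and 397.6, 379.6 and 282.0 at 5 days. Every exposed group overlapped the controls, and fitted log2 differences from control ran from -0.16 ± 0.17 (SE) at 1 day to 0.12 ± 0.17 at 3 days.

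**Figure D1:**
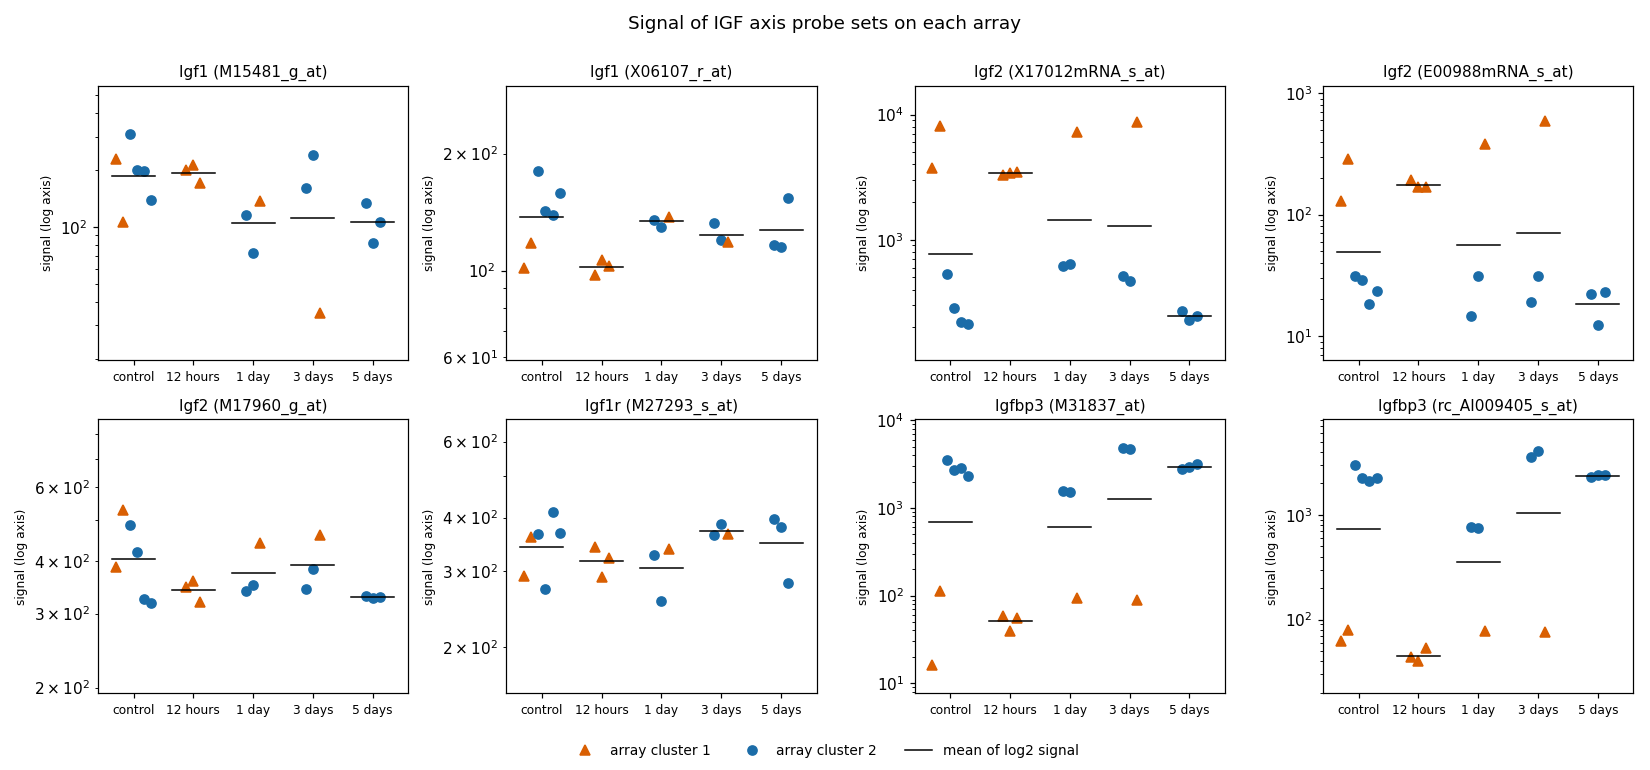
Signal (log axis) of 8 IGF axis probe sets on each of the 18 arrays by group, with orange triangles for arrays of cluster 1, blue circles for arrays of cluster 2 and a line at the mean log2 signal of the group. On the 2 Igf2 probe sets X17012mRNA_s_at and E00988mRNA_s_at and on both Igfbp3 probe sets the triangles and circles do not overlap, while on Igf1r and M17960_g_at they do.

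Igfbp3, the binding protein, showed the opposite arrangement to Igf2 and a larger range. M31837_at read 16.3 and 112.9 on controls 1 and 2 and 3529.2, 2738.5, 2891.3 and 2302.4 on controls 3 to 6. It read 59.1, 39.9 and 55.7 at 12 hours, 1545.5, 1504.9 and 94.6 at 1 day, 4816.8, 4707.1 and 87.9 at 3 days, and 2785.2, 2958.0 and 3182.9 at 5 days. Every cluster 1 array was at or below 112.9 and every cluster 2 array at or above 1504.9.

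The second Igfbp3 probe set, rc_AI009405_s_at, gave the same picture. It read 63.0 and 79.2 on controls 1 and 2 and 3012.5, 2273.3, 2103.0 and 2229.9 on controls 3 to 6. It read 43.5, 39.9 and 53.2 at 12 hours, 760.4, 752.9 and 78.0 at 1 day, 3612.3, 4047.4 and 75.8 at 3 days, and 2299.9, 2401.8 and 2403.8 at 5 days. With cluster means taken away, the 2 Igfbp3 probe sets correlated at 0.66 over 18 arrays.

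Between the clusters, Igfbp3 was 49.2-fold and 35.2-fold lower in cluster 1, on M31837_at and rc_AI009405_s_at, as ratios of the antilog of mean log2 signals. These differences were at ranks 2 and 7 by size among the 1027 tested probe sets. Igf2 was 14.1-fold and 10.8-fold higher in cluster 1, on X17012mRNA_s_at and E00988mRNA_s_at, at ranks 20 and 26. The other 8 tested IGF axis probe sets differed by -0.31 to 0.42 on the log2 scale. Among the 12 tested probe sets 4 did not overlap between clusters, 2 of them higher and 2 lower in cluster 1. Of the other 1015 probe sets, from which the clusters had been formed, 149 or 14.7% did not overlap, 7.68% being higher and 7% lower. Igf2 E00988mRNA_s_at passed the filter on dim probe sets only through cluster 1, since it read at most 31.4 in cluster 2, so its place in that count was set by the arrays on which it was high. These are descriptions, with no test. In bulk RNA fewer cells of a type and less RNA per cell cannot be told apart.

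For the 4 probe sets that did not overlap between clusters, the groups took up less of the variation than the clusters did. For X17012mRNA_s_at the 5 groups accounted for 34.1% of the sum of squares of log2 signal, the 2 clusters for 90.3% and both together for 97.1%. For M31837_at the shares were 40.2%, 94.2% and 95.7%. For 6 of the other 8 tested probe sets the groups took up more than the clusters, as for Igf1r, with 23%, 2.05% and 23%. By their number alone 5 groups take up more of the variation than 2 clusters, so these shares do not show a group difference. For Igf1r the limma F-test over the 5 groups had an adjusted p of 0.732.

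**Figure D2:**
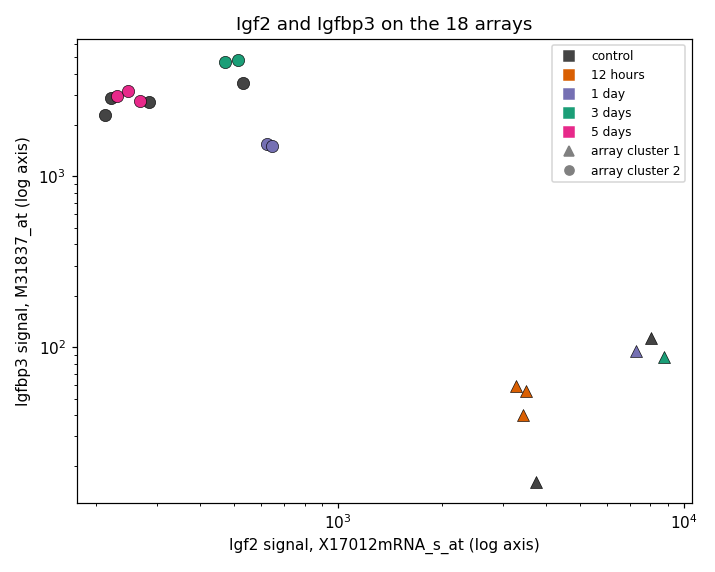
Igfbp3 signal (M31837_at) against Igf2 signal (X17012mRNA_s_at) on the 18 arrays, both on log axes, coloured by group and shaped by cluster. Cluster 2 arrays lie at upper left, with Igfbp3 at 1504.9 or more and Igf2 at 645.3 or less, and cluster 1 arrays at lower right, with Igfbp3 at 112.9 or less and Igf2 at 3282.5 or more.

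Exposure was first compared with the controls at each time, over all 18 arrays in 1 limma fit. None of the 12 tested IGF axis probe sets passed a Benjamini-Hochberg adjusted p of 0.05 at 12 hours, 1 day, 3 days or 5 days, where 1.66%, 0.292%, 0% and 0% of all 1027 probe sets did. At an unadjusted p under 0.05 the IGF axis counts were 3, 0, 0 and 0, against 301, 120, 47 and 94 of all probe sets. In the F-test over the 5 groups none of the 12 passed either, against 1.66% of all probe sets. The median log2 difference of the 12 from control was -0.32, -0.14, -0.06 and -0.3 at the 4 times, against -0.18, -0.05, 0.02 and -0.14 over all probe sets.

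The largest of these differences were at 12 hours. Igfbp3 was at -3.79 ± 1.67 (SE) on M31837_at and -4.03 ± 1.44 on rc_AI009405_s_at, with limma adjusted p of 0.149 and 0.111. Igf2 on X17012mRNA_s_at was at 2.14, with an adjusted p of 0.239. A fit that held the clusters as a block gave 12 hours values of -0.14 and -0.85 for Igfbp3 and -0.55 for Igf2, none of which passed, where 0.292% of all probe sets did.

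The 2 controls labelled cerebral cortex enter all of these comparisons. Against the type-I controls their mean log2 signal differed by 4.24 on Igf2 X17012mRNA_s_at, 2.94 on E00988mRNA_s_at, -6.04 on Igfbp3 M31837_at and -5.08 on rc_AI009405_s_at. In the exact permutation test of 2 against 4 arrays, made two-sided by doubling the smaller tail, each of these had p = 0.133. Igf1 X06107_r_at, at -0.5, had the same p. This is the smallest value that the test so run can give. Without controls 1 and 2, limma called 4 of the 12 probe sets at 12 hours, against 31.3% of all probe sets. These were both Igfbp3 probe sets, at -5.8 and -5.72 (adjusted p 0.00364 and 0.00274), Igf2 X17012mRNA_s_at at 3.55 (0.0149) and Igf1 X06107_r_at at -0.6 (0.0143). In the same fit both Igfbp3 probe sets were also higher at 3 days than at 12 hours, at 4.63 and 4.52 (0.0381 and 0.0305), against 9.35% of all probe sets, and at 5 days than at 12 hours (0.00643 and 0.00533), against 24%, as Igf2 X17012mRNA_s_at was lower (0.0161). The controls left in that comparison were all in cluster 2 and the 12 hours arrays all in cluster 1, so group and cluster cannot be told apart in it.

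**Figure D3:**
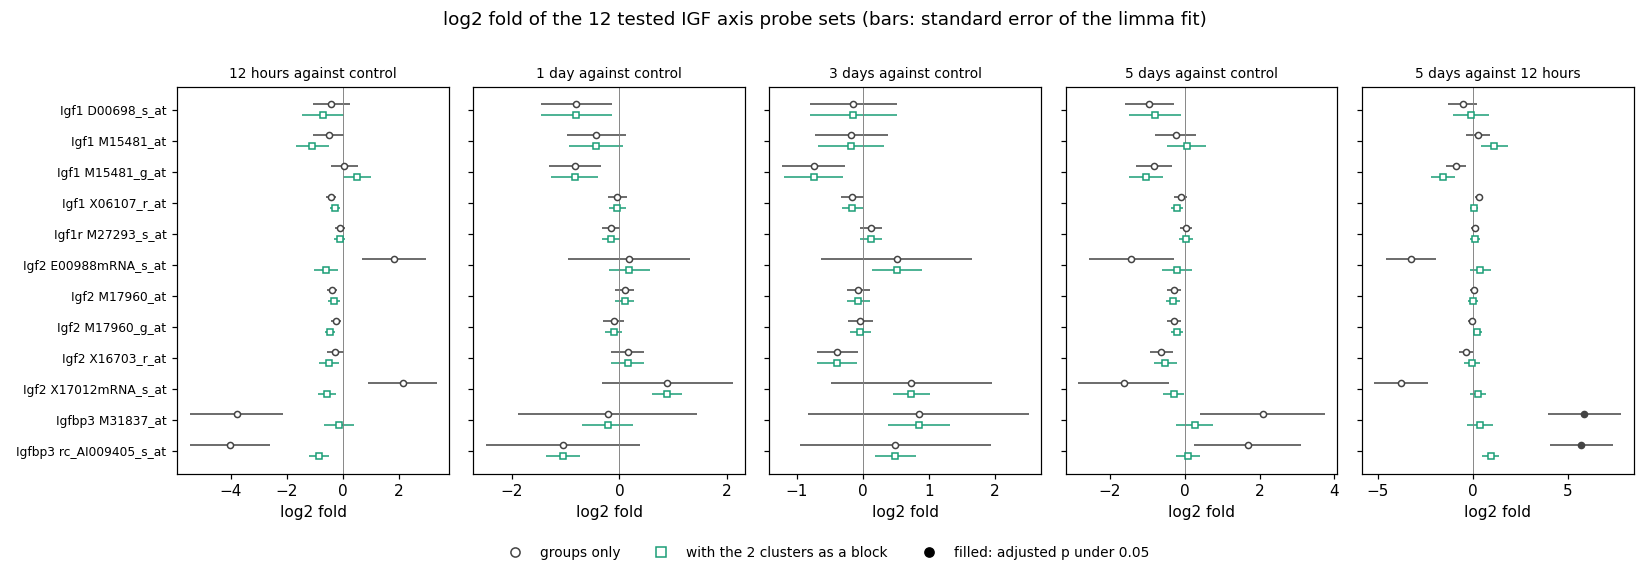
Fitted log2 differences with standard errors (bars) of the 12 tested IGF axis probe sets in 5 comparisons, from the fit with groups only (circles) and with the 2 array clusters as a block (squares), where filled symbols have an adjusted p under 0.05. Only the Igfbp3 circles of 5 days against 12 hours, at 5.87 and 5.71, are filled, and their squares lie at 0.40 and 0.94.

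Among the times, Igfbp3 was higher at 5 days than at 12 hours. The log2 difference was 5.87 ± 1.93 (SE), or 58.4-fold, on M31837_at and 5.71 ± 1.66, or 52.4-fold, on rc_AI009405_s_at, with limma adjusted p of 0.0496 and 0.0415. In this fit these were the only 2 of the 12 probe sets called in any of the 10 pairwise comparisons, and 16.5% of all probe sets were called in this one, 8.96% upward. In the other comparisons between times 2.24% of all probe sets (3 days against 12 hours), 0.0974% (3 days against 1 day), 0.292% (5 days against 3 days) or none were called. Over the 30 alternative settings the adjusted p ran from 4.15e-06 to 0.822 for M31837_at, which missed the threshold in 20, and from 2.49e-06 to 0.333 for rc_AI009405_s_at, which missed it in 11. All 12 hours arrays were in cluster 1 and all 5 days arrays in cluster 2, so time and cluster cannot be told apart here. A cluster block, which rests on the controls, 1 day and 3 days arrays, left differences of 0.40 and 0.94 (adjusted p 0.822 and 0.333), and limma then called none of the 1027 probe sets, 152 of which were under an unadjusted p of 0.05.

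Igf2 lay the other way in that comparison, at -3.78 ± 1.41 (SE) on X17012mRNA_s_at and -3.26 ± 1.32 on E00988mRNA_s_at, but neither passed, with limma adjusted p of 0.0759 and 0.0976. In order of mean log2 signal, Igfbp3 M31837_at ran from 5 days (11.54) through 3 days (10.3), control (9.45) and 1 day (9.24) to 12 hours (5.67). Igf2 X17012mRNA_s_at ran from 12 hours (11.73) through 1 day (10.48), 3 days (10.33) and control (9.59) to 5 days (7.95). No 2 neighbours in either order differed beyond their spread, with limma adjusted p of 0.379 to 0.999 for Igfbp3 and 0.589 to 0.999 for Igf2.

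Within cluster 2 alone, Igfbp3 at 1 day differed from the controls, 3 days and 5 days, and no other pair of these groups differed on it. The arrays there were controls 3 to 6, 1 day arrays 1 and 2, 3 days arrays 1 and 2, and the 3 arrays of 5 days. All came from samples labelled type-I astrocytes. Igfbp3 was lower at 1 day than in the controls, at -0.89 ± 0.19 (SE) on M31837_at and -1.65 ± 0.18 on rc_AI009405_s_at (limma adjusted p 0.0154 and 0.00056). The 1 day arrays, at 1545.5 and 1504.9, lay below every control of that cluster, the lowest of which was at 2302.4. In this comparison 12% of all probe sets were called, 6.52% downward.

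Igfbp3 was then higher at 3 days than at 1 day in cluster 2. The differences were 1.64 ± 0.22 (SE) on M31837_at and 2.34 ± 0.21 on rc_AI009405_s_at, with limma adjusted p of 0.00304 and 0.000424, where 3.7% of all probe sets were called, 2.14% upward. The cluster block over all 18 arrays called rc_AI009405_s_at here, at 1.54 with a limma adjusted p of 0.0457, where 1.27% were called. It did not call M31837_at, which was not under an unadjusted p of 0.05 either. That fit includes the same cluster 2 arrays. The lone cluster 1 arrays of 1 day and 3 days read 94.6 and 87.9 on M31837_at, and 78.0 and 75.8 on rc_AI009405_s_at. Within cluster 2, Igfbp3 at 5 days was also above 1 day, by 0.96 and 1.65 with adjusted p of 0.0174 and 0.00125. Of all probe sets 10.7% were called there, 5.26% upward and 5.45% downward. The 3 days arrays, at 4816.8 and 4707.1 on M31837_at, were above every other array, but the differences from control of 0.75 and 0.68 did not pass, with adjusted p of 0.161 and 0.19, where 0.584% of all probe sets were called. The differences of 5 days from 3 days, -0.68 and -0.69, did not pass either, at 0.167 and 0.149.

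Igf2 in cluster 2 ran at 622.6 and 645.3 at 1 day, 514.7 and 470.7 at 3 days and 267.9, 229.3 and 246.2 at 5 days on X17012mRNA_s_at. At 5 days it was below 1 day, with a difference of -1.36 ± 0.35 (SE; limma adjusted p 0.0384). The difference of 1 day from control, 1.13 ± 0.34, did not pass at 0.0582, and control 3, at 532.5, lay near the 1 day arrays. E00988mRNA_s_at, at 12.3 to 31.4 on these arrays and so near the floor, showed no call. For Igf1 M15481_g_at the difference of 1 day from control in this cluster was -1.16 ± 0.35, with an adjusted p of 0.0648. The fits within cluster 2 rest on 2 arrays at 1 day and 2 at 3 days.

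In the same cluster some neuron and astrocyte markers were also called. At 1 day against control, where 12% of all probe sets were called, 3 of 15 neuron probe sets were higher, 2 of Nefl and 1 of Nefh, both neurofilament subunits, and 2 of 18 astrocyte probe sets were higher, 1 of the glutamate transporter Slc1a2 and 1 of the gap junction protein Gja1. The summed neuron signal was 4860.0 to 5132.1 on the 1 day arrays and 4578.7 to 5995.1 on the controls of the cluster, and the summed astrocyte signal 34819.2 to 36274.2 and 24072.3 to 38020.9. At 3 days against 1 day, where 3.7% of all probe sets were called, 1 neuron probe set (Nefh) and 1 astrocyte probe set (Slc1a2) were lower. At 5 days against 1 day, where 10.7% were called, 3 neuron probe sets (2 of Nefl and 1 of Nefh) and 1 astrocyte probe set (Slc1a3) were lower. The summed neuron signal was 5372.6 to 5806.6 on the 3 days arrays and 4782.2 to 5049.8 on the 5 days arrays of the cluster, and the summed astrocyte signal 25857.4 to 28683.9 and 41664.5 to 42339.6. The part of these markers in the Igfbp3 and Igf2 differences was not tested.

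The few genes measured from the meningeal, fibroblast and vascular list and the choroid plexus list gave no separation of the clusters. Pdgfrb, the receptor of pericytes and fibroblasts, ranged over 261 to 590.3 in cluster 1 and 225.7 to 484.5 in cluster 2. Slc6a13, a meningeal transporter, read 20.9 to 56.3 and 22.1 to 53, and the summed signal of both genes was 288 to 615.7 and 250.3 to 508.1. Enpp2, which the choroid plexus secretes, read 50.6 to 105.5 and 22.9 to 97.9 on its brighter probe set D28560_at. Itgam, a microglial integrin, read 32.1 to 77 and 22.3 to 65.8. The remaining 18 meningeal, fibroblast and vascular markers and 6 choroid plexus markers were not measured under their names, so these cells were read through 3 genes. Pdgfra was listed under the oligodendrocyte lineage only and is not among them. Its AA944099_s_at read 122.8 to 209.8 in cluster 1 and 25 to 109.1 in cluster 2. Whether the share of meningeal or choroid plexus cells differed between the clusters was not tested.

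The other IGF binding proteins on the array did not all follow Igfbp3. Igfbp2, a binding protein that astrocytes in culture make in quantity, had the highest signals. J04486_at read 5011.0 and 10611.5 on controls 1 and 2, 11168.8, 12262.6, 9916.6 and 9455.0 on controls 3 to 6, and 5070.8, 5328.8 and 5287.9 at 12 hours. It then read 3622.2, 3742.5 and 9902.7 at 1 day, 9203.7, 8934.7 and 15481.9 at 3 days, and 9928.3, 7537.6 and 8446.1 at 5 days. The clusters overlapped, and control 1 again lay with the 12 hours arrays and control 2 with array 3 of 1 day and 3 days at higher signals.

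Within cluster 2, Igfbp2 was lowest at 1 day. At 1 day its difference from control was -1.53 ± 0.18 (SE) on J04486_at and -1.49 ± 0.21 on M91595exon_s_at (limma adjusted p 0.000827 and 0.00217). At 3 days it was above 1 day by 1.3 and 1.2, with adjusted p of 0.00682 and 0.0232, and at 5 days by 1.22 and 1.15, with 0.00417 and 0.013. Its differences of 3 days from control there, -0.23 and -0.29 with adjusted p of 0.659 and 0.635, did not pass. Igfbp6, which prefers IGF-II as a ligand, was instead higher at 1 day, by 0.89 with an adjusted p of 0.0255, and lower at 5 days than at 1 day, by -0.85 with 0.0403.

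Igfbp5, a binding protein that attaches to extracellular matrix, was lower in cluster 1, though the clusters overlapped. M62781_at read 136 to 536 in cluster 1 and 461.9 to 2358 in cluster 2. At 5 days against 12 hours it rose by 2.91 on M62781_at and 2.2 on rc_AI029920_s_at, with limma adjusted p of 0.0446 and 0.0459, and with the cluster block the differences were 0.62 and 0.43 and did not pass. At 3 days against 12 hours rc_AI029920_s_at rose by 3.02 with an adjusted p of 0.0331, and by 1.84 with 0.0394 under the cluster block, where 2.24% and 2.53% of all probe sets were called.

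Igfbp6 had its highest mean at 12 hours. M69055_at read 2877.0, 3178.5 and 3308.4 there, 3439.9 and 1019.4 on controls 1 and 2 and 371.0 to 490.3 on controls 3 to 6. It read 946.0, 673.4 and 905.1 at 1 day, 411.5, 444.3 and 1399.3 at 3 days and 381.0, 532.2 and 424.3 at 5 days. The difference of 5 days from 12 hours was -2.82 ± 0.67 (SE; limma adjusted p 0.0259), and it was -1.29 (0.289) with the cluster block. Igfbp1 read 6.2 to 19.3 on M58634_at, near or under the floor on every array, and was not tested.

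**Figure D4:**
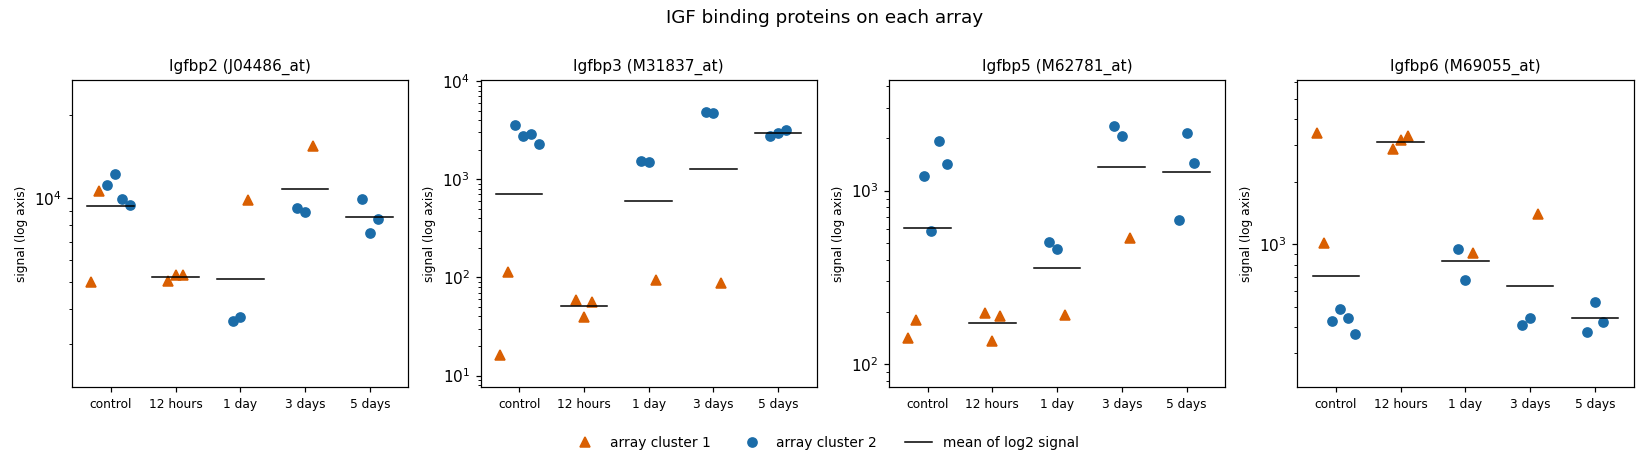
Signal (log axis) of 4 IGF binding proteins on the 18 arrays by group, with triangles for cluster 1, circles for cluster 2 and a line at the group's mean log2 signal. Igfbp3 is at 112.9 or less on every triangle and Igfbp6 is highest at 12 hours and on control 1, while Igfbp2 overlaps between triangles and circles.

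The list of 58 other genes of the IGF and insulin pathway had 14 on the array, with 26 probe sets of which 24 were tested. None was called by limma against control at 12 hours, 1 day, 3 days or 5 days, and 7, 3, 0 and 5 of the 24 were under an unadjusted p of 0.05. At 5 days against 12 hours 5 of the 24 were higher and 3 lower, against 16.5% of all probe sets called. Beside Igfbp5 and Igfbp6 the called genes, named here after their values were seen, were Pik3r1, Prkcz and Map2k1. Pik3r1, the regulatory subunit of phosphatidylinositol 3-kinase, was higher on 2 probe sets (2.35 and 2.81), as was the kinase Prkcz (2.39). Map2k1, the kinase above ERK, was lower on 2 probe sets (-1.29 and -1.13). Its remaining probe set, rc_AI178835_at, was not called, at 144.4 to 170.9 at 12 hours and 112.6 to 142.1 at 5 days. At 12 hours Pik3r1 D64045_s_at read 6.7 to 17.9, U50412_at 8.5 to 29.8 and Prkcz M18332_s_at 12.5 to 17. These readings lay mostly near or under the floor, so the Pik3r1 and Prkcz differences are largely counted from it. These probe sets passed the filter on dim probe sets only through other arrays. The other Prkcz probe set, J04532_at, at 4.3 to 13.8 in cluster 1 and 3 to 9 in cluster 2, was not tested. With the cluster block limma called none of the 24, and 8 were under an unadjusted p of 0.05. The median log2 difference of the 24 in that comparison was -0.26, against 0.01 over all probe sets. Within cluster 2 the counts among the 24 were 2 higher and 3 lower for 1 day against control, where 12% of all probe sets were called, 2 higher for 3 days against 1 day, where 3.7% were, and 3 higher and 2 lower for 5 days against 1 day, where 10.7% were. Apart from Igfbp2 and Igfbp6 these were Map2k1 D14591_s_at (0.97 and then -1.14), the cell death gene Bad on rc_AA818072_s_at (-0.7 at 1 day) and Pik3r1 U50412_at (3.28 at 5 days against 1 day). The other Bad probe set, AF003523_s_at, was not called, with mean log2 signals in cluster 2 of 8.65 at 1 day and 8.81 on the controls. Map2k1 L04485mRNA_s_at and rc_AI178835_at were not called within cluster 2 either. Pik3r1 U50412_at read 7.4 and 4.3 on the 1 day arrays of the cluster, so its difference is counted from the floor.

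Insr, the insulin receptor, which can also bind IGF-II, read 221.4 to 391.4 on M29014_at and Ins1, an insulin gene, 41.7 to 159.4 on E00001cds_f_at. Neither was called in any of the 10 comparisons. The log2 difference of Insr from control at 5 days was -0.43 ± 0.15 (SE), with a limma adjusted p of 0.469. Igf2r, Igfbp4, Igfbp7, the receptor substrates Irs1 to Irs3 and the proteases that cut binding proteins had no probe set named here.

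Some genes near members in the RefSeq gene table were on the array. Igfbp1 is the next protein-coding gene to Igfbp3, and Igfbp2 is next to Igfbp5. On the chromosome of Igf2, the tyrosine hydroxylase gene Th lies 3 protein-coding genes away and Ascl2, which encodes a transcription factor, 4 away. Igfbp1 stayed near the floor on all arrays on which Igfbp3 was high. Th and Ascl2 overlapped between the clusters, with Th at 146.2 to 525.9 in cluster 1 and 58.8 to 243.4 in cluster 2. At 5 days against 12 hours Th was at -1.39 ± 0.44 (SE; limma adjusted p 0.0459), and at -0.75 (0.498) under the cluster block.

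The genes whose pattern was most like each member's were found by Pearson correlation of log2 signal over the 18 arrays, given as a description because the arrays share clusters and groups. For Igf2 X17012mRNA_s_at they were Foxd3 (0.985), Foxd1 (0.966) and the protease gene Ctsk (0.962). For Igfbp3 M31837_at they were 2 probe sets of the heat shock gene Hspb1 (0.984 and 0.977) and Prkcb (0.977). For Igf1r they were Pdgfrb (0.71), Stxbp2 (0.673) and Adora3 (0.648), and for Igf1 M15481_g_at 2 probe sets of Pdgfa (0.714 and 0.697) and Ppp3ca (0.637). The values for Igf1 and Igf1r were lower than those for the members that split with the clusters.

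With each array's cluster mean taken away the nearest genes changed for Igf2 and Igfbp3. For Igf2 they were Maoa (0.881), Itpr1 (0.85) and Foxd3 (0.837), so that Foxd3 was on both lists. For Igfbp3 they were Ncam1 (0.881), Tgfb3 (0.797) and Pld1 (0.782), none of which was on its first list. For Igf1r they were Pdgfrb (0.724), Ncam1 (0.677) and Stxbp2 (0.666), and for Igf1 Sst (0.788) and the 2 Pdgfa probe sets (0.732 and 0.715).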

How the data were processed

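The authors deposited a linear intensity, called signal here, for each probe set on 18 arrays, with a 2%-trimmed mean of 502.067 to 502.632. The software used is not given in the sources used here. No further scaling was applied. Signals under the 10th percentile (11.3) were raised to that value before log2, so differences of dim probe sets are understated. Control probe sets (59) were dropped, and those above the 30th percentile (44.9) on at least 3 arrays were kept, which left 1027. Symbols came from the platform annotation.

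All arrays were fitted in limma 3.58.1 (R 4.3.3, lmFit and eBayes, 5 groups, 13 residual degrees of freedom), with two-sided p-values adjusted by Benjamini-Hochberg within each comparison at 0.05. Each probe set was kept apart. The procedure was tested on simulated data. Every probe set of the 4 genes was named, with Insr and binding proteins of the pathway list, pathway genes called against control, and the 3 most similar genes. No pathway gene was called against control over all arrays. Pik3r1, Prkcz, Map2k1, Bad and the neuron, astrocyte and oligodendrocyte markers were named outside this rule, after their values were seen. The members, lists and tests were chosen with earlier results of these data known, and the neighbouring genes after the files were seen. Arrays of 1 day and 3 days with the same number deviated together (0.39, 0.429 and 0.683), but array 3 alone was in cluster 1 in both, so a pairing cannot be told apart from the clusters.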

Additional observations from a re-analysis of the deposited data

Results flagged for a closer look

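The difference of Igfbp3 between 2 exposure times was larger than the spread of the fit. On M31837_at 5 days exceeded 12 hours by 5.87 on the log2 scale (limma adjusted p 0.0496, with 3 of 3 arrays of 5 days above all 3 of 12 hours), and on rc_AI009405_s_at by 5.71 (0.0415, likewise 3 of 3). All arrays of 12 hours were in one array cluster and all of 5 days in the other. Among the controls, no probe set of the 14 had an array set far apart from the other 5. That check looks for 1 array and can miss 2 that lie together. Controls 1 and 2 did so on Igfbp3 M31837_at, at 16.3 and 112.9 against 2302.4 to 3529.2 on controls 3 to 6.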

How the results depend on the processing

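Counts below are of the 12 tested IGF axis probe sets called by limma. For 5 days against 12 hours the count of 2 became 0 with quantile normalization, without the filter, with the replicate block and with the cluster block, 1 with median centring, cyclic loess or the floor at the 5th percentile, 4 without 1 day array 3 and 3 days array 3, and 5 with only the groups compared. Leaving out 1 array gave 0 to 4, with 0 without any 1 array of 12 hours or of 5 days or without 1 day array 2, 1 without control 3, 5 or 6, 1 day array 1 or 3 days array 1 or 2, and 4 without 3 days array 3. The Igfbp3 differences then stayed at 5.69 to 5.98 and 5.62 to 5.83. For 12 hours against control the count of 0 became 4 with type-I controls only, where 31.3% of all probe sets were called. It was 0 to 4 when 1 array was left out, with 4 without control 1. For 3 days against 12 hours the count of 0 became 2 with type-I controls only, where 9.35% of all probe sets were called. It was 2 without the 1 day and 3 days arrays of cluster 1, and 0 to 1 when 1 array was left out, with 1 without 3 days array 3. Within cluster 2 the counts were 2 for 1 day against control, 2 for 3 days against 1 day and 3 for 5 days against 1 day. Of all probe sets 12%, 3.7% and 10.7% were called there. The cluster block gave 1 for 3 days against 1 day, against 1.27% of all probe sets. The F-test gave 3 with type-I controls only and 1 without the 2 arrays. The replicate block gave 1 for 5 days against control, Igf2 X16703_r_at at -0.97 (adjusted p 0.0367), where it called 61 probe sets in all against 0. A replicate block in the 1 day and 3 days groups alone, added after seeing the data, gave 0. Calls over all probe sets also moved, and the counts above are to be read beside them. For 5 days against 12 hours there were 169, with 1 to 215 when 1 array was left out and 0 to 392 over the other settings. For 12 hours against control there were 17, with 1 to 211 and 0 to 321 in the same order. For 3 days against 12 hours there were 23, with 1 to 72 and 1 to 104. The F-test called 17, with 1 to 114 and 7 to 219. Scaling moved the median of all probe sets at 12 hours against control from -0.18 to between -0.04 and 0.02, small beside the Igf2 and Igfbp3 differences. Of 3756 differences of single probe sets under an alternative, 3510 kept direction and side of the threshold, 184 uncalled ones changed sign, 31 gained and 31 lost a call. The cause of these changes was not tested.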
